A study of Mus musculus with 19 samples.

Results

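The miR-17 to miR-92a cluster and miR-20b were followed in the livers of mice given dibenz[a,h]anthracene, through the 7 microRNAs (miRNAs) mmu-miR-17, mmu-miR-18a, mmu-miR-19a, mmu-miR-19b, mmu-miR-20a, mmu-miR-20b and mmu-miR-92a, written below without the mmu prefix for mouse. They were taken by name from the 696 miRNAs of a mouse Agilent array, whatever their values, and all 7 were found. Of the 7, 6 were detected on enough arrays to be tested, among 208 tested miRNAs in all, and 5 had a level above the measurement floor. All groups were male mice of the transgenic MutaMouse strain 40.6, 10 weeks old, gavaged daily for 28 days, with liver taken 3 days after the last dose. The control group received olive oil only (5 arrays), and the other groups received dibenz[a,h]anthracene (DB[a,h]A in the labels) in olive oil at 6.25 mg/kg/day (low dose, 5 arrays), 12.5 mg/kg/day (middle dose, 4 arrays) or 25 mg/kg/day (high dose, 5 arrays). Each array carried labelled total RNA of 1 mouse, and the labels describe 5 animals in each group. MutaMouse animals carry a bacterial reporter gene in every cell for counting mutations, and no control group without this transgene was included. The tissue was whole liver, so fewer cells of a type and less RNA per cell cannot be told apart.

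The cluster is transcribed as 1 primary RNA that is cut into a row of hairpins, each of which yields a mature miRNA. A mature miRNA lowers the stability and translation of messenger RNAs that pair with its seed, the bases near its 5′ end, so members with the same seed share many targets. It is switched on by MYC and E2F factors, promotes cell proliferation and survival, and is often raised in liver tumours; miR-20b comes from a paralogous cluster on the X chromosome. Dibenz[a,h]anthracene is a polycyclic aromatic hydrocarbon that activates the aryl hydrocarbon receptor and is converted in the liver to metabolites that bind DNA.

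The mature sequences are shown because they sort the members by seed and show how little separates members that behaved differently on the array. They come from RefSeq (build GRCm38.p6), in which all 7 members were matched, and capitals mark the seed, bases 2 to 8 from the 5′ end.
miR-17: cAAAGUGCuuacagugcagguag
miR-20a: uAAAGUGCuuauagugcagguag
miR-20b: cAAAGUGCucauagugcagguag
miR-18a: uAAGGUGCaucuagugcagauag
miR-19a: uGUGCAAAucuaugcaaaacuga
miR-19b: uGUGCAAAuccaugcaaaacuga
miR-92a: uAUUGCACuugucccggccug

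There were 4 seeds among the 7 members. miR-17, miR-20a and miR-20b shared the seed AAAGUGC, miR-19a and miR-19b shared GUGCAAA, and miR-18a (AAGGUGC) and miR-92a (AUUGCAC) stood alone. Differences are counted from the 5′ end, with the base of miR-20a or miR-19a given first. miR-17 differed from miR-20a by U1C and U12C, miR-20b differed from miR-20a by U1C and U10C, and miR-19b differed from miR-19a by U11C. Whether the probes tell these near-identical members apart was not tested. The 6 hairpins of the cluster lie on the plus strand within 836 bases of chromosome 14 (chr14:115043671-115044506, GRCm38.p6), in the order miR-17, miR-18a, miR-19a, miR-20a, miR-19b and miR-92a. miR-20b lies on the minus strand of the X chromosome, with a second gene each for miR-19b and miR-92a beside it, within 355 bases (chrX:52741838-52742192). The mature miR-19b and miR-92a from chromosome 14 and from X have the same sequence, so the array reads them as a sum.

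The quality of the arrays moved with the dose. Control arrays detected 200.6 ± 11.1 miRNAs (SD, n = 5), low dose arrays 194.6 ± 15.3 (n = 5), middle dose arrays 169.5 ± 11.1 (n = 4) and high dose arrays 169.8 ± 12.7 (n = 5). The 75th percentile of signal, over the 220 probes detected on all arrays, averaged 357, 301, 215 and 195 in the same order, and the signal of the RNA spiked in before labelling averaged 12.36, 12.25, 11.89 and 11.52 on the log2 scale. Levels are therefore given as log2 of signal over that percentile of the same array, with values below a floor of -4.79 raised to it. The 19 arrays lay on 3 slides that each held all 4 groups, and slide was a fixed block in the limma fits. The high dose arrays were all in row 2 of their slides, as were 3 of 4 middle dose arrays. By contrast, 4 of 5 control and 4 of 5 low dose arrays were in row 1. The liver label was borne out by miR-122, the defining hepatocyte miRNA, with a median signal of 24864. Of 4 miRNAs listed as absent from liver, the brain miRNAs miR-124 and miR-9 were detected on 0 of 19 arrays, but the muscle miRNAs miR-1 and miR-133a were detected on 6 and 3. Both muscle miRNAs were detected on low dose replicate 11, middle dose replicate 20 and control replicate 22, where miR-1 had levels of 1.71, 0.74 and 1.19, against the floor on 13 of 19 arrays. Of the calls given below, leaving out 1 of these 3 arrays ended that of miR-20a at the low dose (replicate 11) and those of miR-20a and miR-20b for the mean of doses (replicates 11 and 20).

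The cluster's first members could not be measured. miR-17, which shares its seed with miR-20a and is known to target cell-cycle brakes such as CDKN1A, was detected on 0 of 19 arrays, and both of its probes were not well above background on any array. Its brighter probe gave processed signals of -1.87 to 1.08, against 69.6 to 228 for the brighter probe of miR-20a on the same arrays. miR-17*, the other strand of the same hairpin, was detected on 17 of 19 arrays, close to the floor. Whether the miR-17 probes work on this array design was not tested, so these signals do not show that liver lacks miR-17. The hairpin is shown because its strands gave opposite detection on the array. Capitals mark miR-17 first and miR-17* second.
Mir17 hairpin, chr14:115043671-115043754, plus strand: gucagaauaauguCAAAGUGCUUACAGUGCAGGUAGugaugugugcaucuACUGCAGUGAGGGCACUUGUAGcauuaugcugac

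miR-18a, which represses the matrix gene Ctgf in mouse colonocytes, was called detected by the scanner software on 4 of 5 control, 4 of 5 low dose, 1 of 4 middle dose and 2 of 5 high dose arrays. Its brighter probe averaged 7.36 ± 2.11 (SD, n = 5), 7.42 ± 2.01 (n = 5), 5.07 ± 2.01 (n = 4) and 4.59 ± 1.52 (n = 5) processed units in that order, and was well above background on 2 of 19 arrays. The 75th percentile of the arrays was lower at the same doses, and its part was not tested. After scaling, miR-18a was at the floor on all 19 arrays, so no difference could be measured, although it met the detection filter. In controls the levels of the other 5 members ran in the order miR-19b (0.29), miR-92a (-0.39), miR-20a (-1.24), miR-20b (-2.51) and miR-19a (-2.69), but different probes answer with different brightness, so this order is not one of abundance. They ranked 31 to 81 of the 208 tested miRNAs by mean level.

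miR-20a and miR-20b were higher at the low dose. miR-20a, the cluster member closest in sequence to miR-17, had levels of -0.76, -0.93, -0.93, -1.08 and -1.06 at the low dose, against -0.98, -1.38, -1.40, -1.32 and -1.11 in controls. Of the 5 low dose arrays 3 lay above every control, and all 5 lay above the control mean of their own slide. The log2 fold change was 0.27 (SE 0.066, adjusted p = 0.0380, limma with Benjamini-Hochberg adjustment over 208 miRNAs), a 1.21-fold difference. Within slides 1, 2 and 3 the difference was 0.22, 0.45 and 0.21. The call was lost, with adjusted p of at most 0.201 and fold changes of 0.21 to 0.31, when any 1 of low dose replicates 3, 11, 12, 18 and 24, control replicates 10, 17 and 19, middle dose replicate 14 or high dose replicate 23 was left out. The middle dose gave -1.003, -0.87, -1.06 and -1.11 and the high dose -0.94, -1.09, -0.96, -0.999 and -1.07. These levels overlapped the controls, and the fold changes of 0.17 (SE 0.071, adjusted p = 0.169) and 0.17 (SE 0.068, adjusted p = 0.122) did not pass.

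miR-20b, the X-linked relative with the same seed, had levels of -2.19, -2.21, -2.12, -2.35 and -2.27 at the low dose, against -2.39, -2.58, -2.63, -2.60 and -2.35 in controls. The groups did not overlap, though by a narrow margin, since the lowest low dose array lay just above the highest control. The log2 fold change was 0.27 (SE 0.060, adjusted p = 0.0259), and 0.20, 0.41 and 0.22 within slides 1, 2 and 3. Without any 1 of low dose replicates 3, 12 and 24 or control replicates 10, 17 and 19 the call was lost (adjusted p of at most 0.137, fold changes of 0.23 to 0.32). The middle dose arrays had -2.45, -2.40, -2.37 and -2.30, and the high dose arrays had -2.38, -2.45, -2.26, -2.35 and -2.34. Both sets overlapped the controls, with fold changes of 0.12 (SE 0.065, adjusted p = 0.257) and 0.14 (SE 0.062, adjusted p = 0.171). At the low dose, miR-20a and miR-20b stayed above controls under each of 16 other settings of scaling, signal and model, but passed the test in only 5 and 7 of them. All members fell short of the test at every dose when the arrays were scaled on all probes, by quantiles, on the spiked-in RNA or not at all.

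**Figure D1:**
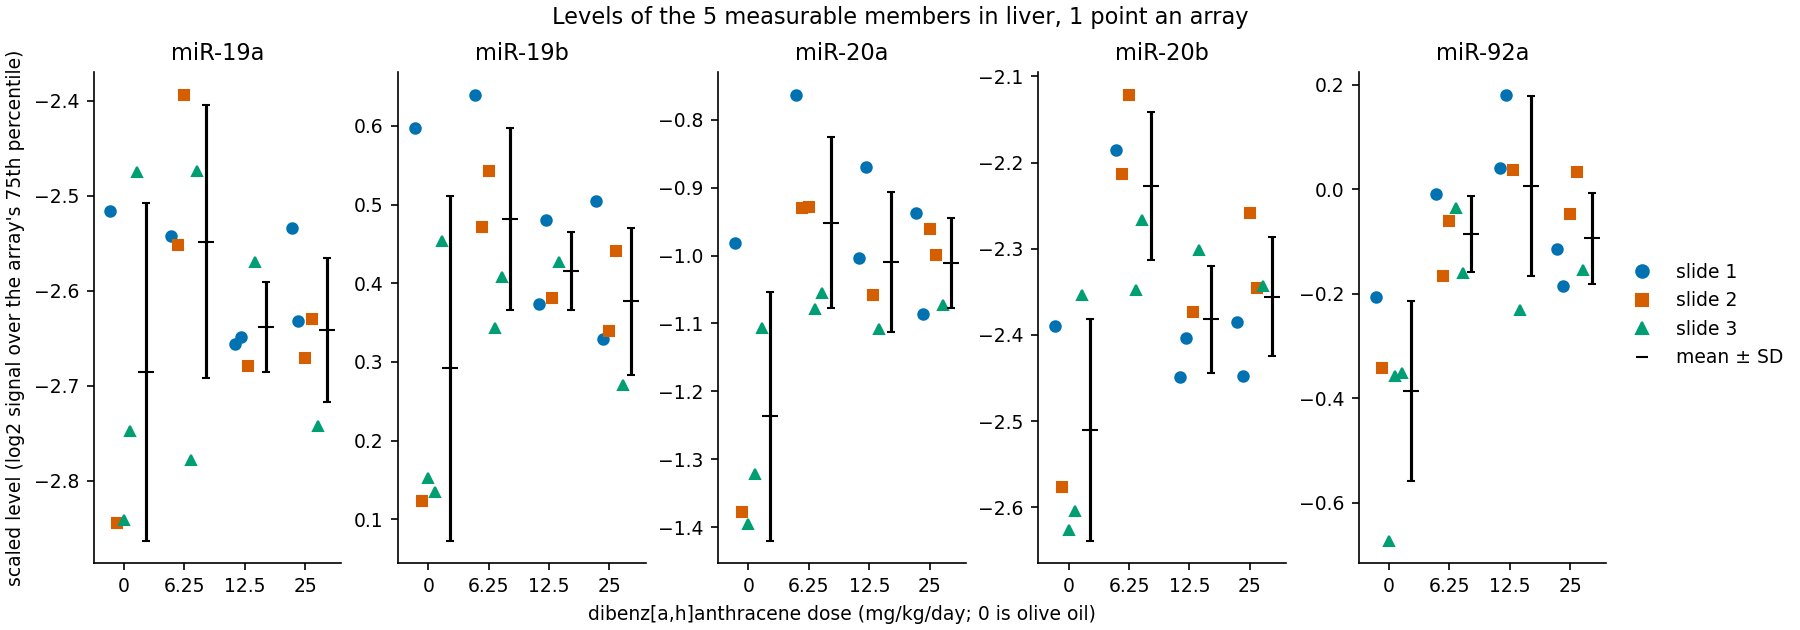
Scaled level (log2 of signal over the array's 75th percentile) of miR-19a, miR-19b, miR-20a, miR-20b and miR-92a in each array, by dose in mg/kg/day, with slide as colour and shape and the mean ± SD of each group beside its points. All 5 low dose arrays lie above all 5 controls for miR-20b and miR-92a, while the control points of miR-19a and miR-19b span the middle and high dose arrays, with 2 and 1 low dose arrays above every control.

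miR-92a was the member with the most uniform difference from controls. It is known to restrain vessel growth by repressing integrin alpha 5. It had levels of -0.21, -0.34, -0.67, -0.36 and -0.35 in controls, -0.01, -0.17, -0.06, -0.04 and -0.16 in low dose livers, 0.04, 0.18, 0.04 and -0.23 in middle dose livers and -0.11, -0.19, -0.05, 0.03 and -0.15 in high dose livers. Low and high dose arrays did not overlap the controls, and 3 of 4 middle dose arrays lay above every control.

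At the middle dose the log2 fold change of miR-92a was 0.34 (SE 0.081, adjusted p = 0.0320), a 1.27-fold difference that passed, and the direction turned below control with scaling on all probes (-0.15) and with no scaling (-0.23). All 4 middle dose arrays lay above the control mean of their slide, by 0.32, 0.38 and 0.23 on average on slides 1, 2 and 3. Leaving out middle dose replicate 6 or 14, control replicate 10 or low dose replicate 12 ended the call (adjusted p of at most 0.101, fold changes of 0.29 to 0.41). At the low dose the fold change of 0.28 (SE 0.074, adjusted p = 0.0517) and at the high dose that of 0.24 (SE 0.077, adjusted p = 0.0948) did not pass. The low dose difference remained above 0 under all 16 other settings and passed in 2 of them. With log2 of the array's 75th percentile as a covariate, the middle dose difference was 0.24 (adjusted p = 0.228), and with the row on the slide as a further block it was 0.29 (adjusted p = 0.0917). Replicate 20, the only middle dose array in row 1, had the lowest middle dose level (-0.23).

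miR-19a and miR-19b showed no difference that passed at any dose. miR-19a levels ran from -2.84 to -2.47 in controls, -2.78 to -2.39 in low dose, -2.68 to -2.57 in middle dose and -2.74 to -2.53 in high dose livers. miR-19b ran from 0.12 to 0.60, 0.34 to 0.64, 0.37 to 0.48 and 0.27 to 0.50 in the same order. For both, the controls alone spanned nearly the whole range. The log2 fold changes of miR-19a were 0.13 (95% interval -0.04 to 0.31), 0.02 (-0.17 to 0.21) and 0.02 (-0.16 to 0.20) at the low, middle and high dose, with adjusted p = 0.572, 1 and 1. Those of miR-19b were 0.18 (0.01 to 0.34), 0.07 (-0.11 to 0.25) and 0.04 (-0.13 to 0.21), with adjusted p = 0.308, 0.699 and 0.866. The intervals leave room for differences as large as those of miR-20a.

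**Figure D2:**
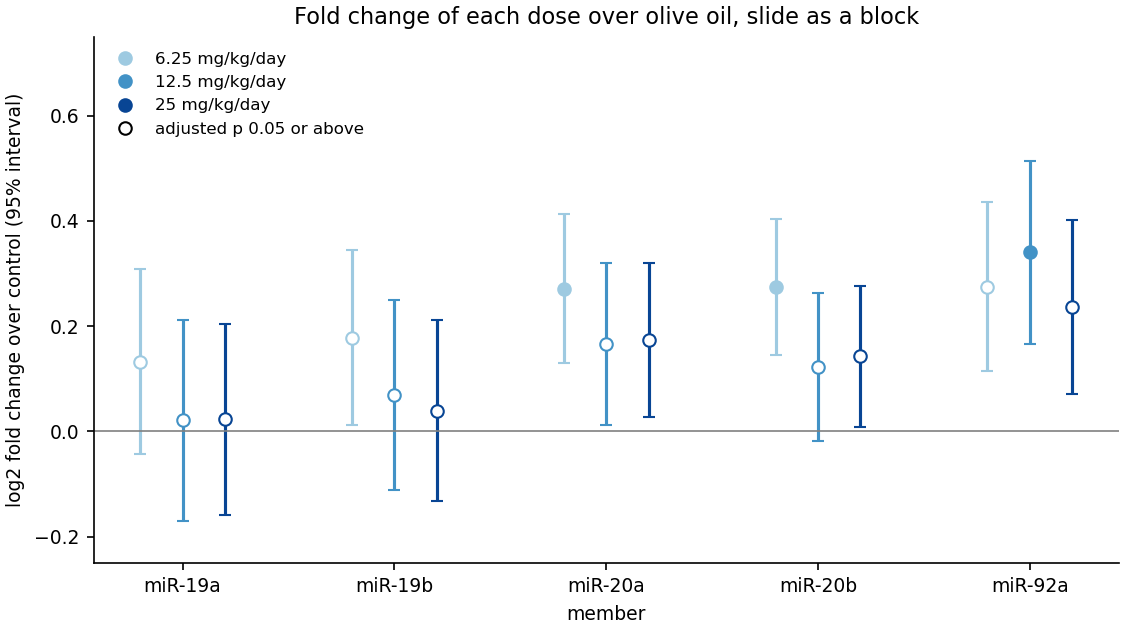
Log2 fold change over control of each member at 6.25, 12.5 and 25 mg/kg/day, with 95% intervals from limma; filled points passed at an adjusted p under 0.05. The points of miR-20a and miR-20b at the low dose and of miR-92a at the middle dose are filled, and the intervals of the 3 doses overlap for every member; with scaling on all probes or no scaling, the middle and high dose points of all 5 members lie below 0.

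Over the members, 2 of 6 tested passed as higher at the low dose, where 4.33% of all tested miRNAs did. At the middle dose 1 of 6 passed, against 5.77% of all, and at the high dose 0 of 6, against 2.4%. Without adjustment, 4, 2 and 3 members had p under 0.05 at the low, middle and high dose, where 13.5%, 21.6% and 19.7% of all tested miRNAs did in the higher direction. Groups did not overlap, with the dose group higher, for 2 members at the low dose (3.37% of all tested) and for 1 at the high dose (4.81%). The median log2 fold change of the 6 members was 0.22, 0.10 and 0.09 from the low to the high dose, and that of all 208 was 0.07, 0.11 and 0.05. Without miR-18a, which is fixed at 0 by the floor, the median of the other 5 was 0.27, 0.12 and 0.14. For the 125 tested miRNAs never at the floor the median was 0.13, 0.15 and 0.10, so at the middle dose that of the 5 members was lower. With or without miR-18a, the members' median lay farther from that of all tested miRNAs at the low dose than at the others. These comparisons share their control arrays, and the members were chosen with earlier results of these data known.

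Averaged over the 3 doses with equal weight, 3 of 6 members were higher than control, among 8.17% of all tested miRNAs. miR-92a had a log2 fold change of 0.28 (SE 0.063, adjusted p = 0.0186), with 13 of 14 dosed arrays above every control. Its direction turned only with no scaling (-0.20), but with scaling on all probes almost none of the difference was left (0.0074). miR-20a had 0.20 (SE 0.056, adjusted p = 0.0383) and miR-20b 0.18 (SE 0.051, adjusted p = 0.0470), and both turned below control with scaling on all probes and with no scaling, miR-20b also with quantile normalization. For both, slide 1 showed little of the difference (0.05 and 0.02), against 0.40 and 0.31 on slide 2 and 0.20 and 0.21 on slide 3; slide 1 held 1 control array. In 10 of 15 other settings of scaling, signal and model, 0 members passed for the mean of doses. With 1 array left out in turn in the main setting, the call of miR-92a was lost only without control replicate 10 (adjusted p = 0.0842). Those of miR-20a and miR-20b held only when high dose replicate 8, control replicate 1 or 22, middle dose replicate 5 or, for miR-20b alone, low dose replicate 18 was left out, and were lost without any other array, with fold changes down to 0.14. miR-19a (0.06, adjusted p = 0.677) and miR-19b (0.10, adjusted p = 0.393) did not pass.

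The doses were not told apart. Between doses (middle against low, high against low and high against middle) 0 members passed the threshold. Of all tested miRNAs, 0.481%, 0.481% and 0% passed as higher in these comparisons and 0% as lower in each. miR-20b differed by -0.15 between the middle and the low dose (adjusted p = 0.429, limma) and by -0.13 between the high and the low dose (adjusted p = 0.260). Of all tested miRNAs, 3.85% and 10.1% were lower in these steps at an unadjusted p under 0.05, and 4.81% and 8.17% higher. Of the 6 members 1 reached that level in the first step, 1 in the second and 0 in high against middle, where 1.44% of all were higher and 5.29% lower. The F test over all groups gave adjusted p = 0.0851 for miR-92a, 0.0875 for miR-20b and 0.109 for miR-20a, where 0.962% of all tested miRNAs passed. The slope per mg/kg/day was 0.0069 on the log2 scale for miR-92a (SE 0.0041, adjusted p = 0.315), and 0 members passed in the trend test, where 0.962% of all passed as higher. In the main setting, the difference from control was largest at the low dose for miR-19a, miR-19b, miR-20a and miR-20b and at the middle dose for miR-92a.

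The second, dimmer probe of each member was fitted as well. At the low dose it gave 0.27 (SE 0.057, adjusted p = 0.0207) for miR-20a, 0.26 (SE 0.073, adjusted p = 0.0591) for miR-20b and 0.32 (SE 0.105, adjusted p = 0.114) for miR-92a. At the middle dose it gave 0.31 (SE 0.114, adjusted p = 0.111) for miR-92a, 0.10 for miR-20a, against 0.17 on the brighter probe, and -0.061 for miR-19a, against 0.02. Of the 3 calls at single doses, that of miR-20a at the low dose passed on both probes. For the mean of doses 0 members passed on the second probe, with adjusted p = 0.0509 for miR-20a, 0.0899 for miR-20b and 0.0645 for miR-92a.

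Pairs of members differed in how closely they moved together, and whether the members moved as 1 unit was not tested. The SD over the 19 arrays of the difference between members, each first centred within its slide, was smallest for miR-20a and miR-20b (0.05). These share a seed but come from different chromosomes, and whether their probes tell them apart was not tested. The SD was 0.070 for miR-19a and miR-19b, and similar for miR-19b with miR-20b (0.065) and with miR-20a (0.072), which have another seed. It was largest for miR-19a and miR-92a (0.18), whose chromosome 14 hairpins lie in 1 primary transcript, although miR-92a is read as a sum with its X copy, and every pair with miR-92a spread more widely than any pair without it. Every pair still spread less than the median of 0.19 to 0.21 between a member and the other miRNAs never at the floor. A difference of 2 members of the same array does not depend on a scaling by 1 factor per array, but does depend on quantile normalization and on background correction. Taken from the control mean, miR-19a minus miR-92a was -0.16 ± 0.18 (SD, n = 5) in low dose, -0.35 ± 0.21 (n = 4) in middle dose and -0.25 ± 0.11 (n = 5) in high dose livers, with 2, 3 and 3 arrays below every control. miR-19a minus miR-20a was below every control on 5 of 5 high dose arrays (-0.18 ± 0.06), and so was miR-19b minus miR-20a (-0.14 ± 0.06). Among all pairs of members at all doses, no other had every array beyond the controls. Both of these pairs hold miR-20a and share their controls, and the share among pairs of all tested miRNAs is not given here. As a difference of the fitted fold changes, miR-19a minus miR-92a at the middle dose was -0.32 in the main setting and -0.49 with quantile normalization, and it turned to 0.20 with normexp background correction. At the high dose, miR-19a minus miR-20a was -0.15 in the main setting and 0.0062 with normexp, and miR-19b minus miR-20a was -0.13 in the main setting, 0.05 with quantile normalization and 0.01 in the authors' deposited table.

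**Figure D3:**
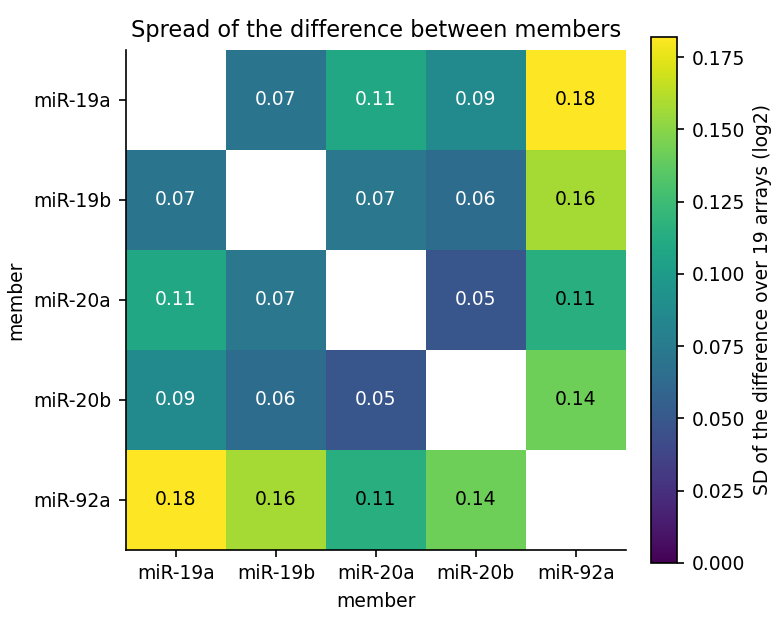
SD over 19 arrays of the difference in log2 level between each pair of members, each centred within its slide. The smallest value is 0.05 for miR-20a with miR-20b, and the row of miR-92a holds the largest values, up to 0.18 with miR-19a.

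Among the 120 other miRNAs never at the floor, the one whose level followed miR-19a, miR-19b, miR-20a and miR-20b most closely was miR-10a, with SDs of the difference of 0.11, 0.09, 0.07 and 0.07. For miR-20a and miR-20b the next was miR-126-3p (0.10 and 0.09). The closest to miR-92a was miR-23b (0.07), followed by miR-652 and let-7d. The median SD over all 120 was 0.19 to 0.21 for the 5 members.

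The list of relatives held 20 miRNAs, of which 12 were on the array and 5 were detected and tested: miR-106b, miR-93 and miR-25 of the third paralogous cluster on chromosome 5, miR-92b, which has the seed of miR-92a, and miR-17*. Of the 5, 1 passed in the main setting, miR-93 at the middle dose, and the values of the relatives under other settings are not given here. miR-93, which has the seed of miR-20a, averaged -2.67 ± 0.12 at the middle dose (SD, n = 4) and -2.84 ± 0.10 in controls (n = 5), with a log2 fold change of 0.24 (SE 0.060, adjusted p = 0.0339). miR-106b, its neighbour with the same seed, had 0.14 there (adjusted p = 0.246), and miR-25, with the seed of miR-92a, had 0.25 (adjusted p = 0.0886). The median fold change of the 5 relatives was 0.12, 0.24 and 0.09 at the low, middle and high dose. miR-92b, near the floor, had larger estimates of 0.68 (SE 0.24, adjusted p = 0.102) and 0.74 (SE 0.22, adjusted p = 0.0859) at the middle and high dose, which did not pass.

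Single markers of other liver cells differed in the same arrays. Of the endothelial list both members were tested and 1 passed, miR-126-3p, which was higher at the low dose by 0.29 (SE 0.066, adjusted p = 0.0268). The other, miR-126-5p, had 0.05 there (adjusted p = 0.463). The summed level of the endothelial list was 1.06 to 1.52 in controls, 1.58 to 1.70 in low dose, 1.42 to 1.59 in middle dose and 1.34 to 1.53 in high dose livers. This sum adds unlogged levels and is nearly all miR-126-3p, with a median signal of 660 against 6.46 for miR-126-5p. Its low dose range lay wholly above that of the controls. Among single miRNAs, 3.37% of all tested had a low dose group wholly above the controls. Of 6 leukocyte markers 4 were tested and 1 passed; miR-223, a myeloid miRNA, was higher at each dose, by 0.37, 0.48 and 0.39 from low to high, with adjusted p = 0.0382, 0.0198 and 0.0482, while the lymphocyte markers miR-150 and miR-155 were detected on 0 of 19 arrays. From the low to the high dose, miR-142-3p had 0.19, 0.20 and 0.12, miR-142-5p had 0.26, 0.0064 and -0.08 and miR-342-3p had -0.019, 0.06 and 0.16, and none of these passed. The summed leukocyte level was -0.09 to 0.35 in controls, 0.34 to 0.45 in low dose, 0.18 to 0.54 in middle dose and 0.08 to 0.60 in high dose livers. The 4 hepatocyte markers had a summed level of 6.62 to 7.01 in controls and of 6.71 to 7.01, 6.78 to 7.06 and 6.54 to 7.15 from the low to the high dose, and 0 of 4 passed. That sum is mostly miR-122, with a median signal of 24864 against 2293 for miR-192, the next brightest. The median fold change of the 4 single markers was 0.06, -0.04 and -0.02 from the low to the high dose. At the high dose they ran from -0.18 to 0.11. The erythroid markers tested (2 of 3) and the stellate and smooth muscle markers tested (3 of 4, with miR-145 detected on 0 arrays) held none that passed. All marker values are from the main setting, and how they change with the scaling or without single arrays is not given here. The part of other cell types in the differences of the members was not tested.

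The direction at the middle and high dose depended on the scaling of the arrays. With no scaling, the fold changes of the 5 members ran from -0.55 to -0.23 at the middle and from -0.68 to -0.47 at the high dose, and with the percentile taken over all probes from -0.47 to -0.15 and from -0.24 to -0.029. In these settings the median of the 125 tested miRNAs never at the floor was also below 0, at -0.42 and -0.61 with no scaling and -0.33 and -0.17 with all probes, against 0.15 and 0.10 in the main setting. The distance from that median, a measure added after the values were seen, was 0.15, 0.19 and 0.14 for miR-92a at the low, middle and high dose, and 0.14, 0.01 and 0.08 for miR-20a. For miR-19a it was 0.01, -0.13 and -0.07 in the same order. Scaling by 1 factor per array leaves these distances equal by construction. With quantile normalization, those at the middle dose were 0.29 for miR-92a and -0.20 for miR-19a, and with normexp background correction that of miR-92a was -0.17.

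**Figure D4:**
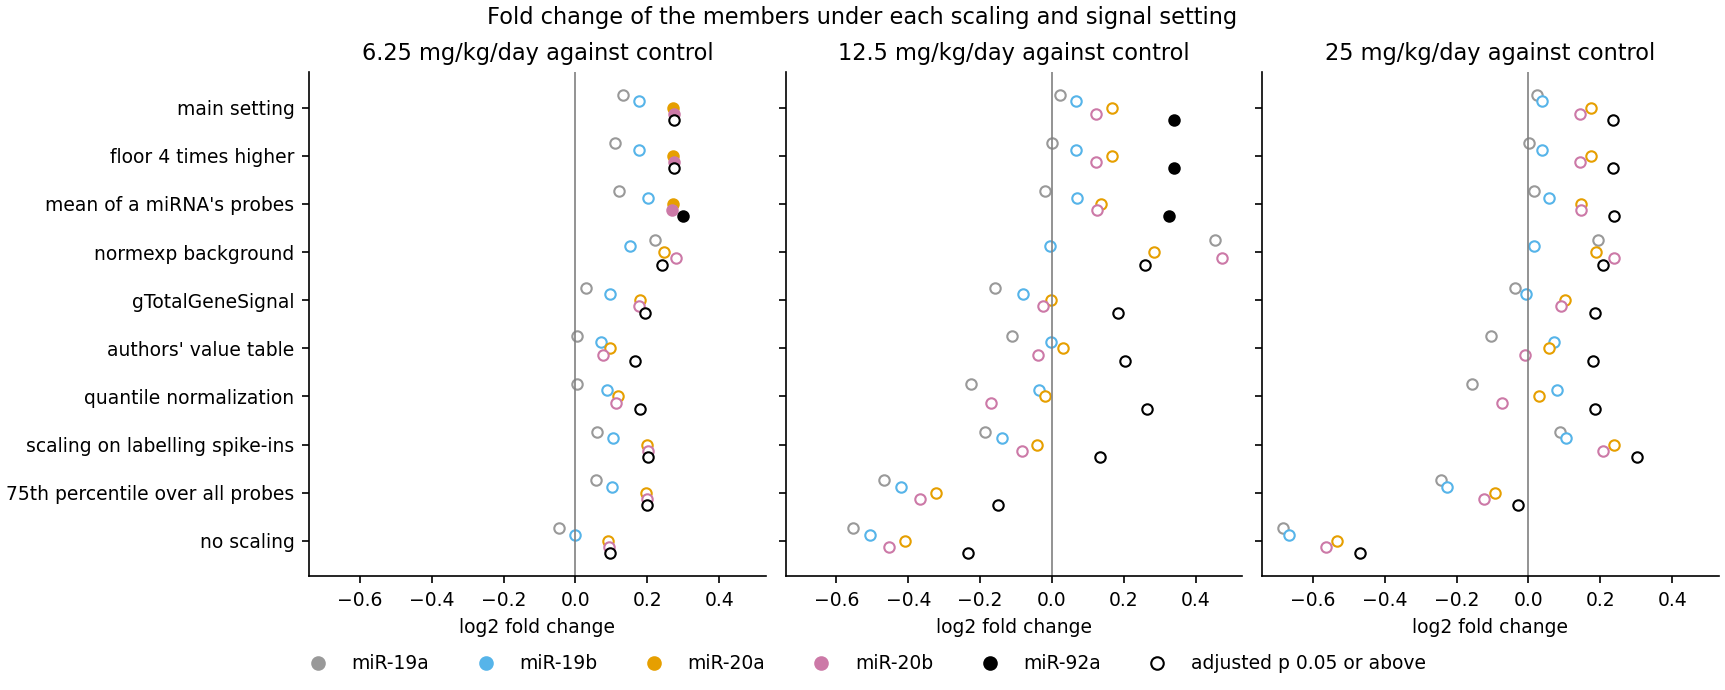
Log2 fold change over control of the 5 members at 6.25, 12.5 and 25 mg/kg/day under the main setting and 9 other settings of scaling and signal; filled points passed at an adjusted p under 0.05. At the low dose all points but those of miR-19a and miR-19b with no scaling lie above 0 (that of miR-19b is at -0.0012), while at the middle and high dose all 5 members lie below 0 with no scaling and with the 75th percentile over all probes.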

How the data were processed

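Per the file headers, Agilent Feature Extraction 10.7.3.1 gave each spot's background-subtracted signal intensity, without scaling between arrays. The authors' deposited value table, used as an alternative, holds log2 values of 692 miRNAs (636 matched); its columns followed the log2 median signal of the arrays, its direction and log scale were thereby set, and its centring and normalization are not given in the sources used here. Per the labels, 100 ng of total RNA was labelled.

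Of 14635 spots an array, 13920 were used, 0 were saturated, and spots of each of 1937 probes were averaged without outliers. Arrays were divided by the 75th percentile over 220 probes, values floored at -4.79 (log2), and the brightest probe taken for each miRNA. The 208 miRNAs detected on at least 4 arrays were fitted with limma 3.58.1 in R 4.3.3, two-sided, slide as a fixed block, all 19 arrays together, adjusted p under 0.05. The fits were tested on simulated data with no floor, no scaling step and no fall of array brightness with dose. That test does not bear on these features. Normexp (offset 50) used the median signal, since the files have no mean signal column, a choice made after the files were seen. All members are named whatever their values; relatives, markers and the 3 most alike miRNAs followed fixed lists or rules. The members and lists were chosen with earlier results of these data known. P-values measure the spread between mice; the number of arrays limits the precision.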

Additional observations from a re-analysis of the deposited data

How the results depend on the processing

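The number of members that passed was 2 at the low dose, 1 at the middle dose and 3 for the mean of doses. It was 0 in all 3 comparisons with the 75th percentile over all probes, quantile normalization, no scaling, scaling on the spiked-in RNA, normexp, gTotalGeneSignal (the scanner software's sum for a miRNA), the authors' value table and no detection filter. It was 0 at the middle dose and for the mean with slide and row as blocks; 1, 0 and 0 with array signal as a covariate; 0 at the low and middle dose with only the compared groups fitted; 1 for the mean with a floor 4 times higher; and 1 at the low and 1 at the high dose without the slide block. In comparisons where 0 members passed in the main setting, 4 passed as lower for middle against low dose with all probes. With quantile normalization 1 passed there. In the trend with no scaling 5 passed as lower, and in the F test 2 passed with no slide block or slide as a random block. The shares of all tested miRNAs that passed in these settings are not given here. With no scaling, the median fold change of all tested miRNAs over control also fell, from -0.036 at the low to -0.47 at the high dose. With all probes it was 0.018 at the low and -0.15 at the middle dose. With 1 array left out in turn, 0 to 3 members passed at the low dose, 0 to 1 at the middle dose, 0 to 3 for the mean and 0 to 1 in the F test. Of 837 values of single members under these alternatives, 653 kept direction and call, 57 lost and 14 gained the call, and 113 turned direction; of 1026 with 1 array left out, 31 turned. miR-18a, at the floor, has no direction to keep. The cause of each change was not tested.

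The log2 fold changes that turned direction follow, with miR omitted from names; M, H and mean stand for middle, high and mean of doses against control, M-L, H-L and H-M for dose steps, and slope for the log2 change per mg/kg/day. With no scaling they were low -0.047 (19a), -0.0012 (19b), M -0.55 (19a), -0.51 (19b), -0.41 (20a), -0.45 (20b), -0.23 (92a), H -0.68 (19a), -0.67 (19b), -0.53 (20a), -0.56 (20b), -0.47 (92a), M-L -0.33 (92a), H-M -0.13 (19a), -0.13 (20a), -0.11 (20b), slope -0.025 (20a), -0.026 (20b), -0.022 (92a), and mean -0.43 (19a), -0.39 (19b), -0.28 (20a), -0.31 (20b), -0.20 (92a). With the 75th percentile over all probes they were M -0.47 (19a), -0.42 (19b), -0.32 (20a), -0.37 (20b), -0.15 (92a), H -0.24 (19a), -0.23 (19b), -0.092 (20a), -0.12 (20b), -0.029 (92a), M-L -0.35 (92a), H-M 0.19 (19b), 0.12 (92a), slope -0.0073 (20a), -0.0087 (20b), -0.0043 (92a), and mean -0.22 (19a), -0.18 (19b), -0.073 (20a), -0.10 (20b). With quantile normalization they were M -0.23 (19a), -0.036 (19b), -0.019 (20a), -0.17 (20b), H -0.16 (19a), -0.073 (20b), H-L 0.0053 (92a), H-M 0.12 (19b), slope 0.0021 (19b), -0.00048 (20a), -0.0050 (20b), and mean -0.13 (19a), -0.043 (20b). With the spiked-in RNA they were M -0.19 (19a), -0.14 (19b), -0.040 (20a), -0.084 (20b), M-L -0.069 (92a), H-L 0.028 (19a), 0.039 (20a), 0.0060 (20b), 0.10 (92a), H-M 0.24 (19b), 0.17 (92a), slope 0.0025 (19a), 0.0026 (19b), and mean -0.013 (19a). With the mean of a miRNA's probes they were M -0.020 (19a). With gTotalGeneSignal they were M -0.16 (19a), -0.081 (19b), -0.0018 (20a), -0.025 (20b), H -0.037 (19a), -0.0066 (19b), M-L -0.0089 (92a), H-M 0.074 (19b), 0.0021 (92a), and mean -0.055 (19a). With the authors' value table they were M -0.11 (19a), -0.0029 (19b), -0.038 (20b), H -0.10 (19a), -0.0082 (20b), H-L 0.014 (92a), H-M 0.073 (19b), slope 0.0020 (19b), -0.0015 (20b), and mean -0.070 (19a). With slide and row as blocks they were M -0.031 (19a), H -0.053 (19a), and H-M -0.023 (19a), -0.0078 (20a). With normexp they were M -0.0059 (19b), M-L 0.23 (19a), 0.037 (20a), 0.19 (20b), H-M -0.26 (19a), 0.022 (19b), -0.10 (20a), -0.23 (20b), and slope 0.0061 (19a). With array signal as a covariate they were M-L -0.0069 (92a). With no slide block they were H-M -0.0031 (19a), -0.0015 (20a), and slope 0.00014 (19a), 0.0014 (19b). With slide as a random block they were H-M -0.0013 (19a), and slope 0.00045 (19b). With only the compared groups they were H-M -0.0027 (20a). With 1 array left out in turn the ranges that crossed 0 were M -0.040 to 0.071 (19a), H -0.043 to 0.072 (19a), H -0.034 to 0.11 (19b), H-M -0.020 to 0.049 (19a), H-M -0.070 to 0.017 (19b), H-M -0.018 to 0.057 (20a), H-M -0.00087 to 0.061 (20b), slope -0.0033 to 0.00035 (19a), slope -0.0036 to 0.00080 (19b), slope -0.000054 to 0.0037 (20b) and mean -0.0041 to 0.11 (19a).

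No paired analysis was possible because the groups share no replicate number. The dimmer members set the limit of detection: miR-17 was not well above background on any array, and miR-18a on 2 of 19. The high dose arrays and 3 of 4 middle dose arrays were in row 2. Row is thus nearly confounded with the high dose and partly with the middle dose, and array brightness fell with dose.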
